A study of Mus musculus with 6 samples.

Results

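The genes described here encode the Hsp90 chaperones of the cytosol, the endoplasmic reticulum (ER) and the mitochondrion and the main co-chaperones that work with cytosolic Hsp90. The members were chosen by gene symbol as *Hsp90aa1*, *Hsp90ab1*, *Hsp90b1*, *Trap1*, *Cdc37*, *Stip1*, *Ahsa1*, *Ptges3*, *Fkbp4* and *Fkbp5*. All 10 had a row among the 18169 genes of the expression table, and all 10 were among the 12286 genes that passed the filter on low counts. Hepa 1-6, a line grown from a mouse hepatoma, received either Sonic hedgehog (Shh), the ligand of the Hedgehog pathway, or vehicle. Each group had 3 libraries of poly(A) RNA, read from a single end over 50 bases. Neither group carried a further allele or agent that the sources used here name, and the dose and duration of Shh were not given for these libraries. The labels do not say whether a group's 3 libraries were grown as separate cultures. The study's general statement on independent repeats gives examples that do not include sequencing, and its caption on expression in these cells counts mice, so every p-value and interval here measures the spread between libraries, which may be technical. The study concerned Hsp90β, the protein of *Hsp90ab1*, in fatty liver disease, and the comparison asks whether the RNA of the Hsp90 system differed between Shh-treated and vehicle-treated hepatoma cells.

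Hsp90 is an ATP-driven chaperone that works as a dimer and brings kinases, steroid receptors and other client proteins to their active form. Hsp70 hands clients over through the adaptor Stip1 (Hop), Cdc37 brings kinases, Ahsa1 (Aha1) speeds the ATPase cycle, Ptges3 (p23) slows it in the closed state, and the peptidyl-prolyl isomerases Fkbp4 (FKBP52) and Fkbp5 (FKBP51) compete for receptor complexes. In the liver the cytosolic chaperones serve the glucocorticoid receptor, insulin signalling kinases and the SREBP pathway of lipid synthesis, among many others.

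The ends of the coding sequences differ between Hsp90 genes of different compartments. The last 30 coding bases before the stop codon, from GENCODE M21 transcripts of mouse, are given 5′ to 3′. Capitals mark the codons of the C-terminal EEVD motif, by which cytosolic Hsp90 docks co-chaperones such as Stip1, or of the KDEL signal, by which Hsp90b1 (Grp94) is kept in the ER.
Hsp90aa1: gacgacacatcacgcatgGAAGAAGTAGAC
Hsp90ab1: gaggatgcctcgcgcatgGAAGAGGTGGAT
Hsp90b1: gaaaaggaatctacagagAAGGATGAATTG
Trap1: gaccttttggtcaaggtcctggagaaacac
The cytosolic genes *Hsp90aa1* and *Hsp90ab1* ended in EEVD, with codons that differ in part, *Hsp90b1* ended in KDEL, and the mitochondrial *Trap1* ended in neither.

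Library totals were close to each other, from 20253781 to 20335463 estimated counts, and the 10 genes took 0.585% to 0.619% of them. The hepatocyte marker list was present, in CPM (counts relative to the library total, adjusted between libraries by TMM factors), with 6 of its 8 genes at 1 CPM or more and a summed level of 3429 to 3510 CPM in vehicle and 3191 to 3485 CPM in Shh libraries, although *Ttr* and *Serpina1a*, which adult hepatocytes express strongly, were near 0. The cholangiocyte list summed to 238 to 246 CPM in vehicle and 237 to 247 CPM in Shh libraries, carried by *Krt7* and *Sox9*. Macrophage markers summed to 15.4 to 25.8 CPM, stellate cell markers to 15.8 to 51.3 CPM and endothelial markers to 1.14 to 2.72 CPM over all libraries, and no marker of any list was at 0 on average. Their part in the results was not tested. As in any bulk sample, fewer cells of a type and less RNA per cell cannot be told apart.

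Part of the reads of some members cannot be assigned by sequence alone. Of the 50-base windows of the *Hsp90aa1* transcript, 65.6% also occurred in transcripts of 4 other gene models, mainly *Gm12346* and *Gm5844*, and none of these had a row in the table. The share was 22.2% for *Ptges3*, mostly with *Ptges3-ps*, 14.6% for *Ahsa1*, 13.8% for *Hsp90b1*, 5.59% for *Stip1*, all of it with *Cfap20*, which has a row, and 4.49% for *Hsp90ab1*. *Trap1* shared 5 windows, *Cdc37* 10, and *Fkbp4* and *Fkbp5* 0. No member shared a window with another member, so the cytosolic Hsp90 genes could be told apart. All counts of the 10 genes were whole numbers in all 6 libraries, while 36.4% of the counts above 0 in the table were not. How the authors' counting treated reads with several matches is not given in the sources used here, and the level of *Hsp90aa1* is uncertain to that extent.

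Compared per length of transcript, *Hsp90ab1* was the highest of the 10 genes in these cells. In FPKM, the authors' unit scaled by transcript length and library total, it stood at 925 ± 2.90 (SD, n = 3) in vehicle and 943 ± 7.99 in Shh libraries. The co-chaperone genes *Fkbp4* (311 ± 4.22 FPKM in vehicle) and *Stip1* (302 ± 4.55) came next and overlapped each other. They were followed by *Hsp90b1* (257 ± 6.07) and *Hsp90aa1* (243 ± 9.68), which also overlapped each other. *Cdc37* stood at 144 ± 2.53 FPKM, *Ahsa1* at 132.5 ± 2.00 and *Ptges3* at 127 ± 4.81, the last pair again overlapping. *Trap1* at 59.1 ± 0.584 FPKM and *Fkbp5* at 34.3 ± 1.86 closed the order, each apart from its neighbours. In Shh libraries *Stip1* (312 ± 6.24 FPKM) and *Fkbp4* (308 ± 12.2) changed places within their overlap, and *Cdc37* (142 ± 4.42), *Ptges3* (134 ± 9.45) and *Ahsa1* (130.4 ± 5.79) formed a run in which each overlapped the next. In FPKM, the adaptor for Hsp70 clients and the receptor isomerase FKBP52 thus stood above the inducible cytosolic Hsp90 gene in both groups. The kinase adaptor, the ATPase activator and p23 stood below it in both groups. These comparisons rest on the level of *Hsp90aa1*, of whose windows 65.6% also occurred in other gene models. The isomerase genes stood far apart, with *Fkbp4* at 8.07 to 9.57 times the FPKM of *Fkbp5* over the 6 libraries.

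**Figure D1:**
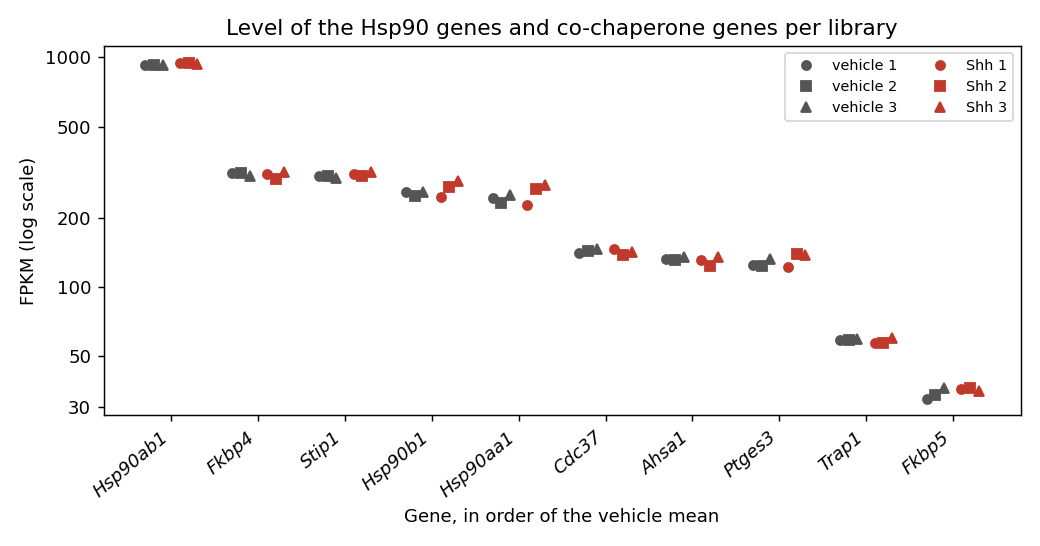
Level of each gene in FPKM on a log axis, with 3 vehicle libraries in grey and 3 Shh libraries in red, the shapes marking the replicate number. *Hsp90ab1* stands at 923 to 949 in the 6 libraries, and the order of the genes is nearly the same in both groups.

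For none of the 10 genes was a difference between Shh and vehicle larger than the spread between libraries found by the test across all genes. At an adjusted p under 0.05 in edgeR's quasi-likelihood test with Benjamini-Hochberg adjustment over all genes tested, 0 of the 10 were called, against 0% of all 12286 genes tested. At an unadjusted p under 0.05, 0 of 10 were higher, against 4.83% of all genes, and 0 of 10 were lower, against 5.56%. DESeq2 also called 0 genes after adjustment, with 814 genes at an unadjusted p under 0.05 against 1277 in edgeR. On the CPM scale, 0 of 10 genes had all Shh libraries above all vehicle libraries, against 6.79% of all genes, and 0 of 10 had them all below, against 8.67%. The median log2 fold change of the 10 genes was 0.010, beside 0.0028 over all genes tested, and 6 of the 10 lay above 0, beside 51.2% of all genes. Their median absolute log2 fold change was 0.046, beside 0.069 over all genes. These are highly expressed genes, with a median of 456 CPM against 29.5 CPM, and the difference between these medians was not tested.

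*Hsp90ab1*, which encodes the constitutive cytosolic chaperone Hsp90β, had the smallest coefficient of variation of the 10 in each group. Its level was 2298, 2294 and 2296 CPM in vehicle libraries 1 to 3 and 2334, 2276 and 2284 CPM in Shh libraries 1 to 3. Shh 1 lay above all vehicle libraries, and the other two Shh libraries lay below them. The log2 fold change was 0.0012 with a standard error of 0.037 (adjusted p = 0.993 in edgeR), and the 95% interval of the change ran from -5.29% to 5.76%. A change in RNA of more than about that size in either direction thus lay outside the interval, as far as the spread between these libraries stands for the error. The vehicle libraries varied by a coefficient of variation of 0.088%, below the 0.463% that counting alone gives at this depth.

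The scale mattered for *Hsp90ab1*. In FPKM, which the authors scaled by library total and not by TMM factors, it was at 923, 924 and 929 in vehicle and 946, 949 and 934 in Shh libraries, so that every Shh library lay above every vehicle library, by 1.88% on average. With the groups wholly apart, the exact permutation test could only give its smallest two-sided p, 0.1 (n = 3 per group), and adds nothing to that. For the other members the same test gave p-values of 0.2 to 0.8. Over all genes tested, 9.37% lay wholly above and 6.07% wholly below vehicle in FPKM, and of the other 9 members 0 did either. With library totals in place of TMM factors, edgeR gave *Hsp90ab1* a log2 fold change of 0.027 with a standard error of 0.032 (adjusted p = 0.753), and 0 of the 10 genes were called.

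*Hsp90aa1*, the cytosolic Hsp90 gene that heat shock induces, and *Hsp90b1*, the ER gene, had their extremes in the same libraries. *Hsp90aa1* was at 695, 657 and 708 CPM in vehicle and 639, 730.3 and 780 CPM in Shh libraries. *Hsp90b1* was at 715, 683 and 708 CPM in vehicle and 673, 723 and 784 CPM in Shh libraries. For both, Shh 1 was the lowest of all 6 libraries and Shh 3 the highest, so the Shh values enclosed the vehicle values. Shh 3 held 1.22 times the *Hsp90aa1* CPM of Shh 1 and 1.17 times its *Hsp90b1* CPM. The log2 fold change was 0.061 for *Hsp90aa1* (standard error 0.063, adjusted p = 0.736 in edgeR), with an interval from -5.05% to 14.6%. For *Hsp90b1* it was 0.050 (standard error 0.052, adjusted p = 0.748 in edgeR), with an interval from -4.38% to 12.0%.

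*Trap1*, the mitochondrial Hsp90 gene, was the lowest of the Hsp90 genes per length. It was at 134.0, 133 and 135 CPM in vehicle and 128, 125 and 135 CPM in Shh libraries. Shh 1 and Shh 2 lay below all vehicle libraries and Shh 3 lay among them. The log2 fold change was -0.050 with a standard error of 0.042 (adjusted p = 0.673 in edgeR), and the interval of the change ran from -9.35% to 2.94%.

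**Figure D2:**
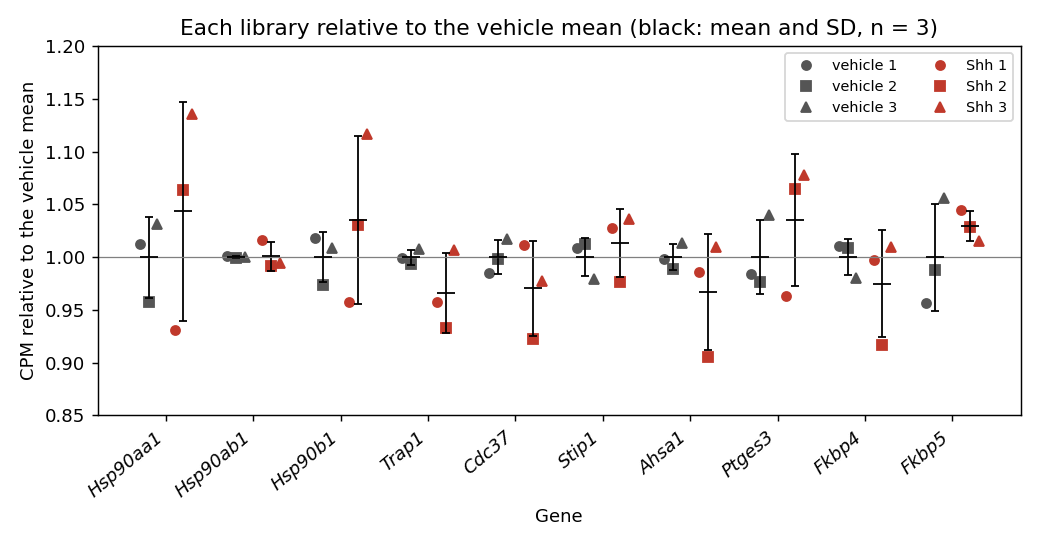
CPM of each library divided by the mean of the vehicle libraries on a linear axis, with black bars for the mean and SD of each group (n = 3). The Shh libraries of *Hsp90aa1*, *Hsp90b1* and *Ptges3* spread from below to above the vehicle libraries, with Shh 1 lowest and Shh 3 highest, while those of *Hsp90ab1* stay within 0.991 to 1.02.

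Among the co-chaperones that load clients, the values of both groups overlapped. *Stip1*, whose product bridges Hsp70 and Hsp90, was at 654, 657 and 635 CPM in vehicle and 667, 633 and 672 CPM in Shh libraries. The Shh libraries lay on both sides of the vehicle range, and the log2 fold change was 0.019 (standard error 0.040). *Cdc37*, whose product recruits protein kinases, was at 259.7, 263 and 268 CPM in vehicle and 267, 243 and 258 CPM in Shh libraries. Shh 2 and Shh 3 lay below the vehicle libraries and Shh 1 among them, and the log2 fold change was -0.044 (standard error 0.043). The adjusted p-values in edgeR were 0.887 and 0.727 in that order, and the intervals of the change were -4.58% to 7.64% and -9.06% to 3.52%.

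The log2 fold changes of the co-chaperones of the ATPase cycle lay on opposite sides of 0 in the main fit. With the length offset they lay on the same side, *Ahsa1* at 0.013 and *Ptges3* at 0.077. *Ahsa1*, the activator, was at 171, 169 and 173 CPM in vehicle and 169, 155 and 173 CPM in Shh libraries. Shh 2 was the lowest library, Shh 1 lay just below the vehicle libraries and Shh 3 among them. The log2 fold change was -0.048 (standard error 0.046, adjusted p = 0.714 in edgeR). *Ptges3*, the p23 gene, was at 240.0, 238 and 254 CPM in vehicle and 235, 259.8 and 263 CPM in Shh libraries. As for *Hsp90aa1*, Shh 1 was the lowest library and Shh 3 the highest, at 1.12 times Shh 1, and the log2 fold change was 0.050 (standard error 0.049, adjusted p = 0.726 in edgeR).

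The receptor isomerases likewise did not pass the test. *Fkbp4* was at 680.4, 679 and 660.3 CPM in vehicle and 672, 617 and 680.0 CPM in Shh libraries. Only Shh 2 lay outside the vehicle range, below it, and the log2 fold change was -0.037 (standard error 0.045, adjusted p = 0.780 in edgeR). *Fkbp5*, a gene that glucocorticoids induce, was at 127, 131 and 140.1 CPM in vehicle and 139, 137 and 135 CPM in Shh libraries. All Shh libraries lay within the vehicle range, and the log2 fold change was 0.042 (standard error 0.045, adjusted p = 0.753 in edgeR). The intervals were -8.86% to 4.23% for *Fkbp4* and -3.81% to 10.2% for *Fkbp5*. Over the 6 co-chaperones the intervals of the change reached from -9.78%, for *Ahsa1*, to 11.5%, for *Ptges3*.

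**Figure D3:**
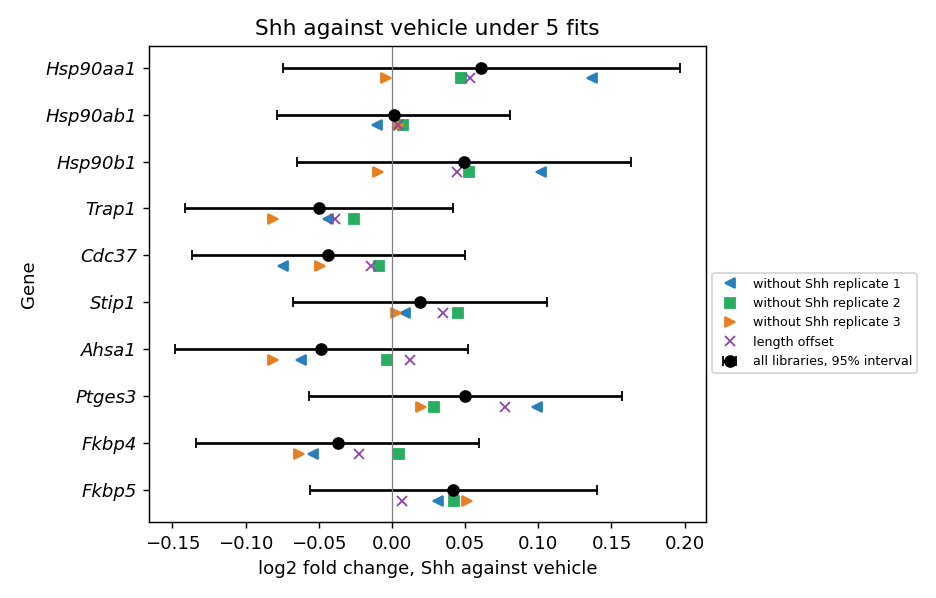
Log2 fold change of Shh against vehicle from edgeR, with black points and 95% intervals for all libraries and coloured marks for the fits without each Shh library and with a length offset. Every black interval crosses 0, and *Hsp90aa1* moves from -0.0044 without Shh 3 to 0.14 without Shh 1.

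The values of the Shh libraries were more spread than those of the vehicle libraries. The coefficient of variation was larger in Shh for 9 of the 10 genes, the exception being *Fkbp5* with 5.07% in vehicle and 1.41% in Shh libraries. It was 3.83% in vehicle and 9.92% in Shh libraries for *Hsp90aa1*, and 2.35% and 7.68% for *Hsp90b1*. This was shared with other genes, since it was larger in Shh for 81.4% of the 1650 genes at or above the lowest member's mean level, whose median was 2.07% in vehicle and 4.16% in Shh libraries. Leaving out a Shh library moved the fold changes of the genes that spread most. Without Shh 1, *Hsp90aa1* was at a log2 fold change of 0.14, *Hsp90b1* at 0.10 and *Ptges3* at 0.099, each with an unadjusted p under 0.05 (0.0117, 0.0440 and 0.0380) and none past the adjusted threshold (adjusted p = 0.119, 0.221 and 0.206 in edgeR), in a fit that called 195 genes over the whole table (1.57%) against 0 with all libraries. These were 3 of 10 genes on the higher side at the unadjusted threshold, against 10.7% of all genes on that side and 21.1% on either side in the same fit, compared with 10.4% on either side with all libraries. Without Shh 3, *Hsp90aa1* was at -0.0044 and *Hsp90b1* at -0.0092.

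The balance between the paralogs was also compared, since it does not depend on library scaling. It does depend on the level of *Hsp90aa1*, which is uncertain through the windows shared with other gene models. *Hsp90ab1* made up 79.0%, 79.9% and 78.7% of the FPKM of the cytosolic pair in vehicle and 80.6%, 78.0% and 77.0% in Shh libraries. The means were 79.2% ± 0.625 and 78.5% ± 1.89 (SD, n = 3 each), a difference of -0.68 percentage points (exact permutation test, two-sided p = 0.6, with 0.1 the smallest that 3 against 3 allows). *Hsp90b1* made up 17.3% ± 0.233 of the FPKM of all 4 Hsp90 genes in vehicle and 17.7% ± 0.927 in Shh libraries, a difference of 0.37 points (exact permutation test, two-sided p = 0.6, n = 3 each). Shh 1 and Shh 3 were the extremes of both shares and lay on opposite sides of vehicle. Without Shh 1 the differences were -1.73 and 0.84 points, and without Shh 3 they were 0.11 and -0.086 points.

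**Figure D4:**
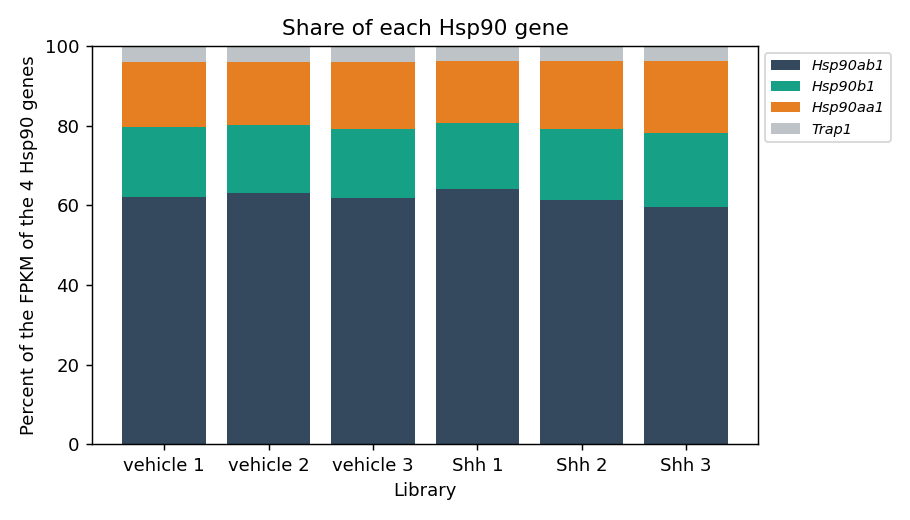
Share of each gene in the summed FPKM of the 4 Hsp90 genes, in percent, as a stacked bar per library. *Hsp90ab1* takes 59.7% to 64.0%, *Hsp90b1* 16.7% to 18.6%, *Hsp90aa1* 15.4% to 17.9% and *Trap1* 3.69% to 4.00%, and the Shh libraries hold both the highest and the lowest share of the first 3.

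Beyond the 10 genes, 31 of 32 further Hsp90 co-chaperone genes were tested and 0 were called at an adjusted p under 0.05. At an unadjusted p under 0.05, 2 were higher and 2 lower, beside 4.83% and 5.56% of all genes. The list's median log2 fold change was -0.0094. The smallest p belonged to *Stub1*, the gene of CHIP, a ubiquitin ligase that tags clients held by Hsp70 and Hsp90. It was at 133, 133 and 132 CPM in vehicle and 122, 116 and 116 CPM in Shh libraries. The groups did not overlap, and the log2 fold change was -0.16 (standard error 0.040, adjusted p = 0.469 in edgeR). With the length offset it was -0.096 (adjusted p = 0.802 in edgeR). Without Shh 1, in a fit that called 1.57% of all genes, it was -0.19 and passed (adjusted p = 0.0481 in edgeR). The others were *Ppp5c*, a phosphatase that acts on Hsp90 complexes, at -0.12, and *Fnip1*, a folliculin partner that slows the Hsp90 ATPase, at 0.21. *Sgtb*, at a mean of only 4.91 CPM in vehicle and 6.22 CPM in Shh libraries, was at 0.34, and at 0.19 without Shh 2. Each had an adjusted p of 0.469 in edgeR with all libraries. With the length offset these were at -0.099, 0.14 and 0.32 in that order. In CPM, 2 genes of the list lay wholly above vehicle and 2 wholly below, namely these and *Stub1*, against 6.79% and 8.67% of all genes.

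Of 20 ER chaperone genes beside *Hsp90b1*, 0 were called. At an unadjusted p under 0.05, 1 was higher and 0 were lower, beside 4.83% and 5.56% of all genes. The higher gene was *Dnajc3*, an ER co-chaperone of BiP. It was at 58.4, 56.1 and 55.4 CPM in vehicle and 59.7, 65.3 and 63.6 CPM in Shh libraries. Its log2 fold change was 0.15 (standard error 0.050, adjusted p = 0.469 in edgeR). In CPM, 1 gene of the list, *Dnajc3*, had all Shh libraries above all vehicle libraries, and 2, *Creld2* and *Cnpy2*, had them all below. Over all genes tested these shares were 6.79% and 8.67%. The lectin chaperone gene *Canx* was at 0.11 and *Creld2* and *Cnpy2* were at -0.099 and -0.088, and the list's median was -0.022. With the length offset these values were 0.093 for *Dnajc3*, 0.069 for *Canx*, -0.040 for *Creld2* and -0.0022 for *Cnpy2*. Of 15 genes for mitochondrial chaperones and proteases beside *Trap1*, 0 passed at either threshold, with a median of -0.014. The nearest to it were the protease subunit gene *Clpx* at 0.15 and *Hspe1*, the co-chaperonin gene, at -0.13, the latter with 259 CPM in Shh 2 against 326 to 348 CPM in the other 5 libraries. With the length offset *Clpx* was at 0.14 and *Hspe1* at -0.025, and without Shh 2 they were at 0.092 and -0.019.

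The heat shock factors and the genes they induce, as they do *Hsp90aa1*, were counted next. Of 17 listed, 15 were tested and 0 passed at either threshold, with a median log2 fold change of 0.0071. At the unadjusted threshold 4.83% of all genes were higher and 5.56% lower, and 15 genes are too few to tell 0 from these shares. *Hspa1a* and *Hspa1b*, the stress-inducible Hsp70 genes, did not pass the filter on low counts. *Hsf1* itself was at -0.050 and *Hsf2* at 0.10, while *Hspa4* was at 0.050 and *Hsbp1*, which encodes an HSF1 binding protein, at -0.13. With the length offset *Hsbp1* was at -0.059, *Hsf1* at -0.025, *Hsf2* at 0.098 and *Hspa4* at 0.0013.

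Genes of Hsp90 clients, and genes that respond to glucocorticoids, were counted likewise. Of 14 steroid receptor and glucocorticoid-responsive genes tested, 0 were called, with a median of 0.0074. At an unadjusted p under 0.05, 1 was higher and 3 were lower, beside 4.83% and 5.56% of all genes. The higher gene was *Nr3c1*, the glucocorticoid receptor, at 57.0, 57.6 and 56.4 CPM in vehicle and 57.4, 70.8 and 66.2 CPM in Shh libraries, where Shh 1 lay among the vehicle libraries. The lower genes were the metallothioneins *Mt1* (log2 fold change -0.18) and *Mt2* (-0.17) and the mTORC1 inhibitor gene *Ddit4* (-0.12). With the length offset *Nr3c1* was at 0.11, *Ddit4* at -0.080, *Mt1* at -0.053 and *Mt2* at -0.043. The last pair are short, at 497 and 507 bases by the ratio of counts to FPKM. Without Shh 1, *Nr3c1*, *Mt1* and *Mt2* passed (adjusted p = 0.0401, 0.0354 and 0.0462 in edgeR), in a fit that called 1.57% of all genes.

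Of 29 kinase and transcription factor clients tested, 0 were called, with a median of 0.011. At an unadjusted p under 0.05, where 4.83% of all genes were higher and 5.56% lower, 2 clients were higher and 1 was lower. These were the MAP kinase pathway gene *Braf* at 0.16, the Hippo kinase gene *Lats2* at 0.20 and the interferon regulatory factor gene *Irf3* at -0.12. *Pdpk1*, the kinase that activates AKT, followed at 0.13. With the length offset *Braf* was at 0.072, *Lats2* at 0.14, *Irf3* at -0.087 and *Pdpk1* at 0.059. Without Shh 1, *Lats2*, *Hif1a* and *Lats1* passed, in a fit that called 1.57% of all genes. In the SREBP branch, which cytosolic Hsp90 stabilises, 0 of 7 genes were called and *Mbtps2*, a protease gene that releases SREBP, was at 0.13 (unadjusted p = 0.0427, adjusted p = 0.477 in edgeR), while *Srebf1* was at -0.039 and *Scap* and *Insig1* were at 0.049 and 0.096. With the length offset *Mbtps2* was at 0.077, *Srebf1* at -0.082, *Scap* at 0.0066 and *Insig1* at 0.094.

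Motifs in promoters were searched in RefSeq windows (GRCm38.p6) from 250 bases before to 50 bases after the start, which 8 of the 10 genes had. *Hsp90aa1* and *Hsp90ab1* were not searched. The ER stress element was searched as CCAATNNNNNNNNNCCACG on both strands and occurred in 39 of 32851 promoters (0.119%), of which 1 held more than a single copy. That promoter was the one of *Hsp90b1*. The matches are shown as they read on the gene's strand, 5′ to 3′, with the letters of the element in capitals, because they are what sets the ER gene apart from the other 7 searched.
Hsp90b1, 212 to 194 bases before the start, chr10:86705632-86705661, minus strand: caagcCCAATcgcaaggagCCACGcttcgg
Hsp90b1, 107 to 89 bases before the start, chr10:86705527-86705556, minus strand: gagtgCGTGGtgaggcacgATTGGtgagtt
The second match is the element in reverse. Of 17 ER chaperone genes of the list above with a promoter, 6 held the element, namely *Calr*, *Canx*, *Creld2*, *Dnajc3*, *Hspa5* and *Pdia6*. A pair of heat shock element units, GAANNTTC or the same units in the other order, occurred in 15.1% of promoters and in 2 of the 8 members, *Fkbp4* and *Cdc37*. None of the 8 searched held both motifs, and a match or its absence describes these letters in this window only.

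The genes whose pattern over the 6 libraries was most like that of the cytosolic Hsp90 genes were found by Pearson's r of log2 CPM among 7192 named genes of at least 20 CPM. For *Hsp90aa1* these were the RNA helicase gene *Ddx52* (r = 0.997), *Ttc9c* (0.993), *Tlr4* (0.991), the receptor for lipopolysaccharide, and *Tbc1d15* (0.982), each with a Spearman rho of 1. Without Shh 3 and Shh 1, the libraries farthest from the median, r was 0.991, 0.994, 0.958 and 0.992 over the other 4. For *Hsp90ab1* they were *Mettl7a1* (r = 0.987, rho = 0.771), *Dtnbp1* (0.984, rho = 1), *Taf5l* (0.971, rho = 0.771) and the cyclin gene *Ccnb2* (0.968, rho = 0.943). Without Shh 1 and Shh 2, r for these was 0.908, 0.889, 0.699 and 0.977. The highest of 7192 values over 6 libraries are given as a description, and all genes of a library share its depth and scaling.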

How the data were processed

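The authors deposited estimated counts per gene, which were rounded for the tests, and FPKM, in which each count is divided by transcript length and library total. Bowtie2, with no version, is listed in the submitters' processing notes. Counting tool, genome build and annotation were not given in the sources used here. Exosomes from mouse livers are what the series design text speaks of, but labels and paper describe the cell line, and these were followed. Columns headed control were taken as the vehicle libraries of the same number. Another 6 per-sample columns, in a further unit, were not used.

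Counts were analysed with edgeR 4.0.16 in R 4.3.3 (expression filter with minimum count 10 and total 15, TMM, quasi-likelihood test on group alone, Benjamini-Hochberg at 0.05 over all genes tested). CPM are TMM-scaled. FPKM served for levels between genes. Intervals cover 95%. The length offset was a spline of 5 degrees of freedom per library on lengths from counts and FPKM. The test was also run on counts simulated with the same dispersion in both groups, with an outcome not given here. Since the Shh libraries were more spread, that run cannot show how the test performs on these data. Alternatives were DESeq2 1.42.0, upper-quartile factors, other filters, the replicate number as a block, the length offset and leaving out each library. Library totals without TMM were added after seeing the data, and the exact test on the FPKM of members was not among the planned tests. Members and lists were chosen with earlier results of these data known. Named were all members, up to 4 genes per list with the smallest p, and the 4 most alike for each cytosolic gene.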

Additional observations from a re-analysis of the deposited data

How the results depend on the processing

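Of the 10 genes, 0 were called under every alternative, and 0 reached an unadjusted p under 0.05 except *Hsp90aa1*, *Hsp90b1* and *Ptges3* without Shh 1, where 21.1% of all genes did against 10.4% with all libraries. Over the whole table the count of called genes went from 0 to 1 without a filter, to 1 with the length offset, to 4 with the length offset and the replicate block together, and to between 0 and 195 when a library was left out, 195 being without Shh 1 and the rest at most 3. The labels do not say whether libraries were paired by their replicate numbers. The correlations of same-numbered deviations were -0.040, -0.054 and 0.098, which with 3 libraries per group cannot decide it. The fits with and without the replicate block both called 0 genes. Directions near 0 were not stable. *Hsp90ab1* was at a log2 fold change of -0.0011 without a filter, and *Ahsa1* at 0.013 with the length offset and 0.012 with the block and the length offset. Leaving out a library, *Hsp90aa1* ranged from -0.0044 to 0.14, *Hsp90ab1* from -0.010 to 0.0077, *Hsp90b1* from -0.0092 to 0.10 and *Fkbp4* from -0.064 to 0.0050. The others kept their sign under all 14 alternatives, but not their size: *Trap1* ranged from -0.082 to -0.024, *Cdc37* from -0.075 to -0.0087, *Stip1* from 0.0024 to 0.045, *Ptges3* from 0.020 to 0.099 and *Fkbp5* from 0.0067 to 0.084. With library totals in place of TMM factors, 974 genes were higher and 411 lower at an unadjusted p under 0.05, against 594 and 683 with them. The share of *Hsp90ab1* in cytosolic Hsp90 FPKM differed by -1.73 to 0.11 points and that of *Hsp90b1* in the 4 genes by -0.086 to 0.84 points when a library was left out. The cause of these shifts was not tested. With 3 libraries per group, the exact tests of shares could not go below p = 0.1.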
